A study of Rattus norvegicus with 9 samples.

Results

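Collagens and matrix glycoproteins of the rat bladder were followed as a set of 41 named genes, each represented by the probe set with the highest mean signal among those that the platform annotation assigns to that gene alone. Probe sets were found for 39 of the 41 genes, out of 14217 genes with such a probe set. The expression of Tnxb and Thbs1 was not analysed here. The genes were taken in 5 groups by role: 7 fibrillar collagens, 5 components of basement membranes, 7 beaded, network and fibril-associated collagens, 11 elastic fibre components and 9 measured adhesive and matricellular proteins.

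Affymetrix arrays had been hybridised with total RNA from 3 bladder tumors, 3 pieces of adjacent normal bladder and 3 normal bladders, giving 9 arrays. The tumors were bladder transitional cell carcinoma (BTCC) of Sprague-Dawley (SD) rats that received N-methyl-N-nitrosourea (MNU), an alkylating carcinogen, into the bladder at 20 mg/ml, with 1 instillation a week over 10 weeks. Adjacent tissue came from the bladders of rats with BTCC, and normal tissue from 3 SD rats described as normal. All 9 samples were labelled female and 10 weeks old, and all 9, the normal ones included, carried the same MNU protocol text, although the design text calls the last group normal rats. The design text describes tumor and adjacent tissue as pairs from the same 3 rats, so these 2 groups share animals, but the labels do not tie a number to a rat and the groups were fitted as separate samples. Whether the normal rats received any instillation is not given in the sources used here. Each array held RNA of a whole tissue piece, and the bladder layers it contained are not given either. Differences between arrays of a group were taken as the replicate spread, and how the pieces were sampled is not given in the sources used here.

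Fibrillar collagens are the tension-bearing fibres of connective tissue, secreted mainly by fibroblasts and, in the bladder wall, also by smooth muscle cells. Sheets of collagen IV, with nidogen and collagens XV and XVIII, form the basement membranes under the urothelium and around vessels and muscle cells. Elastic fibres, built from elastin on fibrillin microfibrils, let the wall stretch and recoil as the bladder fills, and matricellular proteins such as tenascin C and periostin are deposited during tissue remodelling.

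Most matrix genes stood far below normal in tumors 2 and 3, while those of tumor 1 lay on both sides of normal and adjacent tissue had medians between these. The median over the 39 genes, as a percent of each gene's mean on the normal arrays, was 101% in tumor 1, 15.6% in tumor 2 and 19.4% in tumor 3. It was 58.8%, 50.4% and 24.8% in adjacent tissues 1, 2 and 3. The normal bladders lay between 95.4% and 108%, and the same median over all 14217 genes was between 99.9% and 106% on every array. In tumor 2, 30 of the 39 genes were under 25% of normal and 15 under 10%, against 23 and 9 in tumor 3, 21 and 7 in adjacent tissue 3, and 0 and 0 in tumor 1. The counts under 25% include Fbn2 and Thbs4 in tumor 2 and Thbs4 in adjacent tissue 3, whose signals were under 50. A signal of 50 is 62.5% of normal for Fbn2 and 28.4% for Thbs4, so neither is shown to be under 25%. Tumor 1 had the highest signal of the tumors for 37 of the 39 genes, and adjacent tissue 3 the lowest of the adjacent tissues for 31. In tumor 1 the genes ran from 27.6% of normal (Matn2) to 628% (Col18a1). Of the 39 genes 17 were below every normal array there and 14 above, against 33.4% and 41.1% of all genes. In tumors 2 and 3 together 34 genes were below every normal array, against 28% of all genes.

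**Figure D1:**
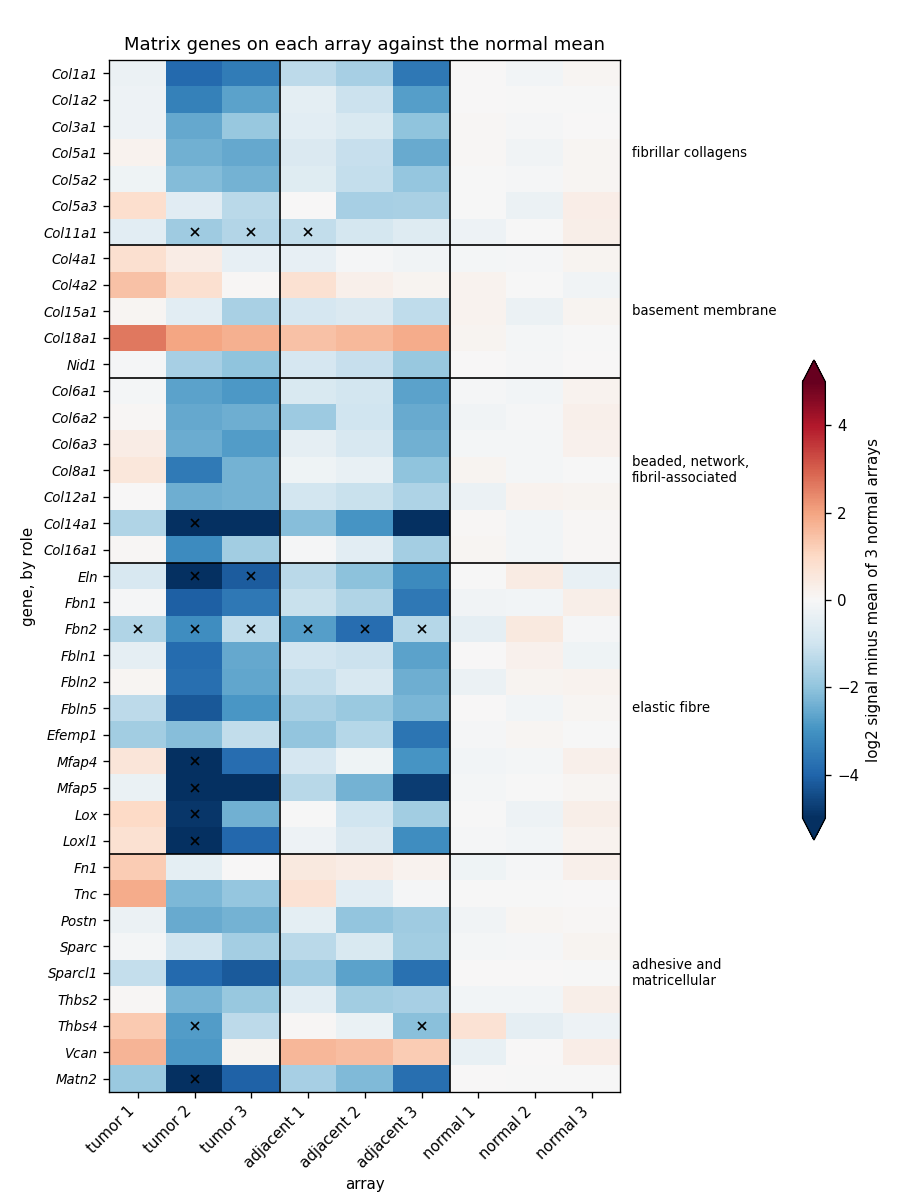
Log2 signal of 39 matrix genes (rows, by role) on 9 arrays (columns) minus the gene's mean on the 3 normal arrays; blue is lower, red higher, the darkest blue stands for differences of 5 log2 units or more below normal, and crosses mark signals under 50. Tumors 2 and 3 and adjacent tissue 3 are blue for most genes, Col18a1 is red on all 6 tumor and adjacent arrays, and tumor 1 is above every normal array for 14 genes.

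With tumor 1 apart from the others, the tumors were spread far more than the normal bladders. The median SD of the log2 signal over the 39 genes was 1.55 among tumors, 0.870 among adjacent tissues and 0.151 among normal bladders (n = 3 each), against 0.339, 0.355 and 0.172 over all genes. In the tumors, 1 of the 39 genes was called higher than in normal bladder and 5 lower, where called means an adjusted p under 0.05 in limma's moderated test with Benjamini-Hochberg adjustment over 31042 probe sets. Over all genes, 13.6% were called higher and 9.95% lower in this comparison. In adjacent tissue 2 of the 39 were called higher and 21 lower, against 13.3% and 11.5% of all genes. The same shares over all genes are the background of the counts by role group and gene list below. Between tumors and adjacent tissue 0 of 39 were called, and 0% of all genes. The median log2 difference over the 39 genes was -1.65 for tumor minus normal and -1.31 for adjacent minus normal, with 0.05 and 0.01 over all genes. These comparisons share the normal arrays, and a test by exact permutation of 3 against 3 arrays cannot go below p = 0.1.

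Counted without a test, 17 of the 39 genes were lower on all tumor arrays than on any normal array, against 20.1% of all genes, and the same held for 29 genes in adjacent tissue, against 21.9%. The same 17 genes were below every normal array on all 6 tumor and adjacent arrays, against 15.8% of all genes. The gene above them on all 6 was Col18a1, 1 of 39, against 18.9%. With tumor 1 left out, 34 of the 39 genes were called lower and 1 higher, while 17.5% of all genes were called lower. Without tumor 2 or tumor 3 the number of genes called in tumors was 4 and 3, and without any 1 normal bladder it was 2, Col18a1 and Efemp1. In adjacent tissue 23 genes were called in all, 8 or 9 when 1 normal bladder was left out, and 16 to 30 when 1 adjacent tissue was. Without a variance trend 2 genes were called in tumors and 7 in adjacent tissue, and 1 fit of all 9 arrays called 5 in adjacent tissue. Of these runs only the one without tumor 1 has a share over all genes beside it. The counts of the other runs therefore cannot be read as particular to matrix genes.

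**Figure D2:**
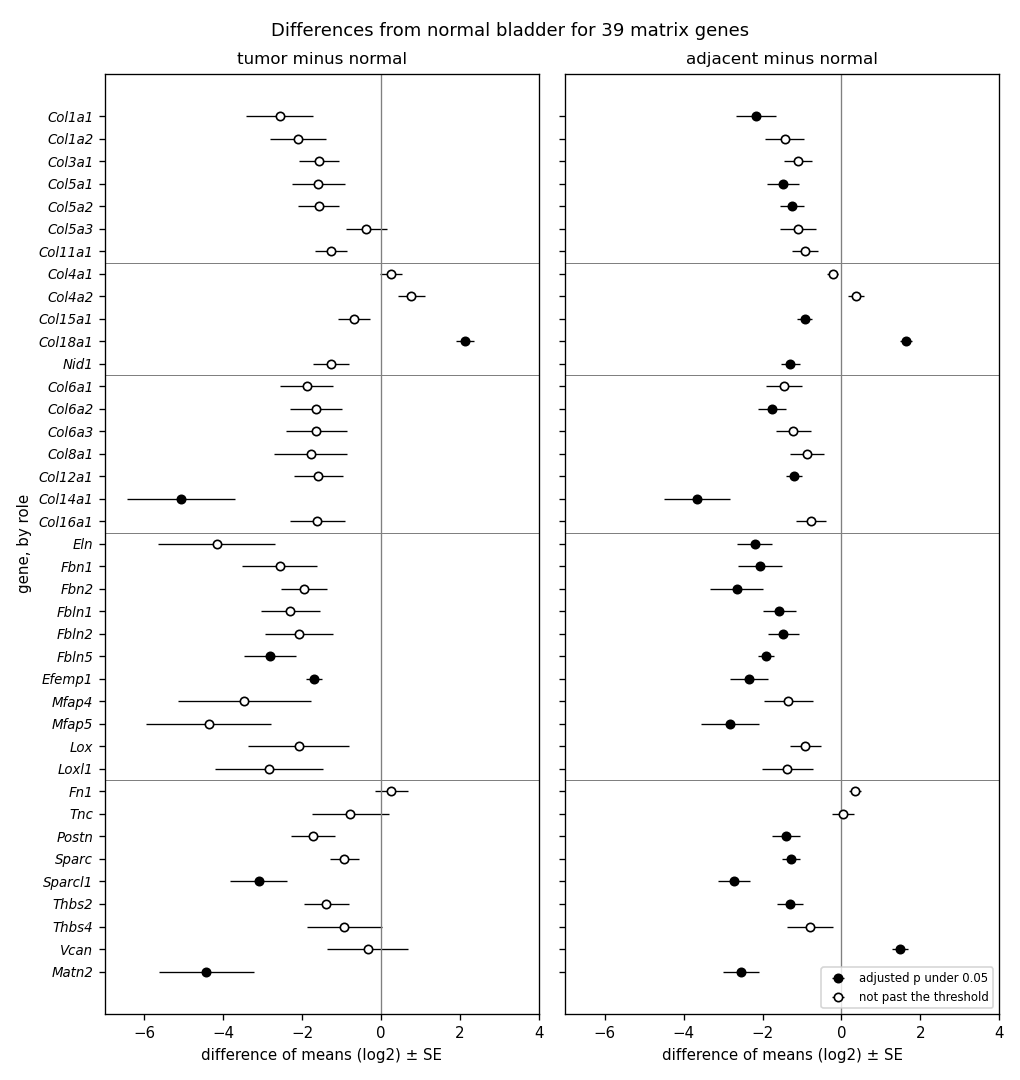
Difference of group means in log2 units with its standard error for 39 matrix genes, ordered by role, for tumor minus normal (left) and adjacent minus normal (right), 3 arrays in each group; filled points passed an adjusted p of 0.05 in limma. Most points lie left of 0 in both panels, 6 are filled on the left and 23 on the right.

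Smooth muscle markers, and some but not all fibroblast markers, were low on the same arrays as the matrix genes. The summed signal of 12 of 12 smooth muscle markers was 68.0%, 2.56% and 2.95% of normal in tumors 1, 2 and 3, and 33.1%, 10.7% and 4.50% in adjacent tissues 1, 2 and 3. For 9 of 10 fibroblast markers with a probe set the sum was 69.8%, 4.69% and 17.2% in the same tumors, while adjacent tissues had 61.7%, 52.6% and 26.0%. Both sums ranked the 6 arrays as the median of the matrix genes did, from tumor 1 through adjacent tissues 1, 2 and 3 to tumor 3 and tumor 2. All 12 smooth muscle markers were called lower in adjacent tissue and 5 in tumors, and of the 9 fibroblast markers 5 and 1. Over all genes 11.5% were called lower in adjacent tissue and 9.95% in tumors, so the 1 of 9 is near that share. The fibroblast sum is dominated by Dcn, Lum and Dpt, which also encode secreted matrix proteins. Its match in order is therefore partly one between matrix genes. The tumor means of Dcn, Lum and Dpt were 13.7%, 18.9% and 4.70% of normal. Those of Pdgfra, Pi16 and Gpc3 were low too, at 14.0%, 9.26% and 1.45%, with Gpc3 under a signal of 50 in tumors 2 and 3. Thy1 (157%), Fap (166%) and Pdgfrb (107%) were not under normal. The other sums covered 12 of 13 urothelium, 7 of 8 endothelium and 9 of 10 leukocyte markers. They ran from 110% to 150%, from 73.5% to 110% and from 197% to 484% of normal over the 6 arrays. Within the urothelium list 5 markers rose and 2 fell in tumors, from Krt14 and Krt5, basal keratins at 2801% and 1192% of normal, to Krt20 of umbrella cells at 7.08%. Skeletal muscle markers (10 of 10) ranged from 12.9% to 77.5%, adipocyte markers (5 of 6) from 16.6% to 92.1% and Schwann cell markers (5 of 7) from 107% to 175%. The adipocyte sum also ranked the 6 arrays in the order of the matrix median. Most of the Schwann cell sum is Mbp, called higher in tumors (189% of normal) and in adjacent tissue (182%). S100b was called lower in both (11.3% and 15.4%), and Sox10 in adjacent tissue, where its signals were under 50. Most of the highest leukocyte sum, in adjacent tissue 3, is Cd14. None of the fibroblast, smooth muscle, urothelium or endothelium markers was under a signal of 50 on every array. The part of these markers in the matrix results was not tested, and in whole tissue fewer cells of a type and less RNA per cell cannot be told apart.

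**Figure D3:**
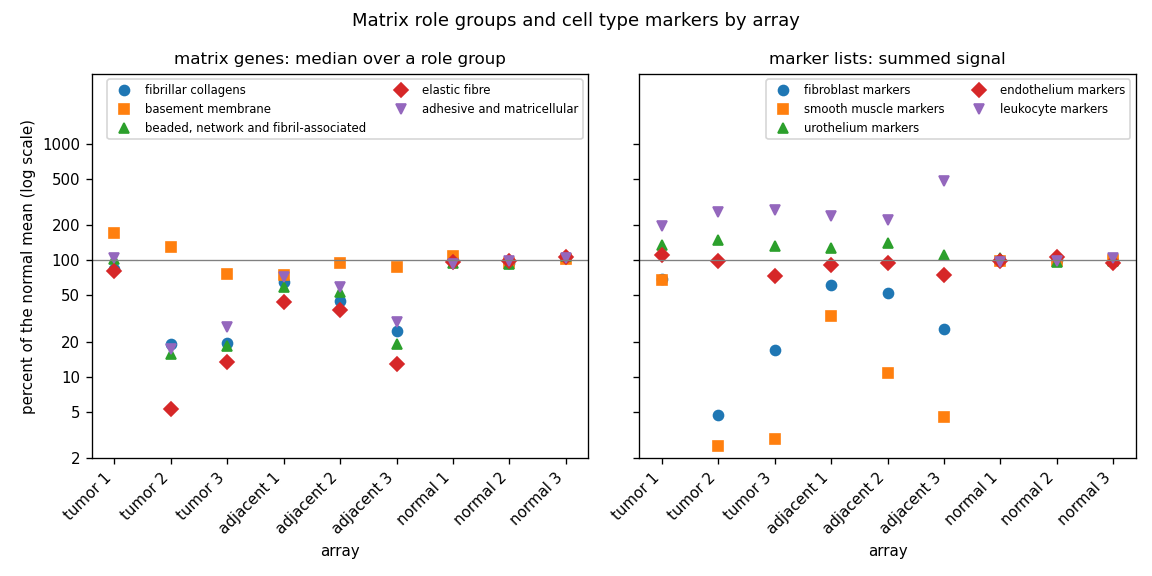
Percent of the mean of the normal arrays on a log axis for each of 9 arrays: left, the median over the genes of each matrix role group; right, the summed signal of 5 cell type marker lists. The median of basement membrane genes stays between 75.3% and 173% on the tumor and adjacent arrays. In tumor 2 the median of elastic fibre genes drops to 5.26% and the sum of smooth muscle markers to 2.56%.

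Of the 7 fibrillar collagens, 3 fell in adjacent tissue (Col1a1, Col5a1 and Col5a2) and 0 passed the test in tumors, with median log2 differences of -1.25 and -1.58. The log2 signal of Col1a1, the main chain of collagen I, was 13.11, 9.55 and 9.91 in tumors, 12.11, 11.76 and 9.86 in adjacent tissues and 13.42, 13.30 and 13.53 in normal bladders. Every tumor and adjacent value was below every normal value, with tumor 1 the nearest to them. The difference was -2.17 (SE 0.51) in adjacent tissue with an adjusted p of 0.023 (limma), and -2.56 (SE 0.85) in tumors with an adjusted p of 0.081. A dimmer probe set of Col1a1 gave -2.32 in adjacent tissue (adjusted p = 0.0099, limma). Col3a1, the chain of collagen III, which forms thin fibres in distensible organs, was 14.26, 11.95 and 12.62 in tumors, 13.99, 13.77 and 12.50 in adjacent tissues and 14.56, 14.45 and 14.54 in normal bladders. All 6 values again lay under the normal range, and neither comparison passed (adjusted p = 0.080 and 0.065, limma).

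Collagen V seeds collagen I fibrils and limits their width. Its chain Col5a1 was 11.03, 8.46 and 8.29 in tumors, 10.12, 9.68 and 8.32 in adjacent tissues and 10.92, 10.68 and 10.96 in normal bladders, so that tumor 1 alone was above the normal range. Col5a1 fell by 1.47 in adjacent tissue on the log2 scale (SE 0.41, adjusted p = 0.041, limma) and differed by -1.59 in tumors (adjusted p = 0.15). Col5a2 measured 13.29, 13.25 and 13.43 in the normal bladders, against 13.11, 11.14 and 10.97 in the tumors and 12.70, 12.13 and 11.38 in the adjacent tissues. Neither tumors nor adjacent tissues overlapped the normal bladders for Col5a2, with differences of -1.58 (adjusted p = 0.079) and -1.25 (SE 0.29, adjusted p = 0.023) in limma. A dimmer Col5a2 probe set passed in tumors too (-1.81, adjusted p = 0.042). The remaining fibrillar genes, Col1a2, Col5a3 and Col11a1, passed in neither comparison, with differences of -2.11, -0.37 and -1.26 in tumors and -1.43, -1.09 and -0.92 in adjacent tissue. A dimmer Col11a1 probe set, with all 6 tumor and adjacent signals under 50 and all normal ones above, passed in both (adjusted p = 0.035 and 0.026, limma). The Col1a1, Col5a1 and Col5a2 calls were lost without any 1 normal bladder (adjusted p up to 0.136, limma), and those of the collagen V chains also without adjacent tissue 2. Col5a1 was also not called when arrays were centred on their medians.

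The promoter of Col1a2, which encodes the partner chain of Col1a1, is shown because it holds both motifs searched in the set, in the stretch from 250 to 101 bases before the start at chr4:33518307-33518456 of GRCr8 (plus strand, RefSeq). Capitals mark CCAAT, here on the opposite strand as ATTGG, and TATAAA.
Col1a2: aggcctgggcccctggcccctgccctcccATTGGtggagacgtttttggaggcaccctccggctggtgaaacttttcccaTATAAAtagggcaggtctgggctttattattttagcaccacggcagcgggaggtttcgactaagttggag
RefSeq windows from 250 bases before to 50 after the start were matched by symbol for 28 of the 41 genes. CCAAT, on either strand, was found in 10 of the 28 (35.7%) and in 39.6% of the 27457 windows of all genes. TATAAA, on either strand, was found in 3 of them, Col1a2, Tnc and Postn (10.7%), and in 15.3% of all windows. The motifs do not overlap in Col1a2, and a match describes the letters of a window only.

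Basement membrane genes had the median nearest to normal of the 5 role groups in tumors 2 and 3. It was 173%, 129% and 75.7% in tumors 1, 2 and 3 and 75.3%, 95.5% and 87.6% in adjacent tissues. The single genes lay on both sides of normal in tumors 2 and 3, from Nid1 (31.3% and 24.5%) to Col18a1 (398% and 344%). Their summed signal was 80.8% and 53.5% of normal in these 2 tumors. Of the 5 genes 1 rose and 0 fell in tumors, and 1 rose and 2 fell in adjacent tissue. With 5 genes, 1 higher call is not far from the share of all genes (13.6% and 13.3%). Col18a1, whose C-terminal fragment is endostatin, was 11.34, 10.68 and 10.47 in tumors, 10.17, 10.31 and 10.53 in adjacent tissues and 8.81, 8.60 and 8.66 in normal bladders. Each tumor and each adjacent tissue was higher than every normal bladder. Col18a1 rose by 2.14 on the log2 scale in tumors (SE 0.23, adjusted p = 0.0033, limma), to 441% of normal. In adjacent tissue it rose by 1.65 (SE 0.15, adjusted p = 0.00086, limma), to 313%. The dimmer of its 2 probe sets gave 2.13 and 1.94 (adjusted p = 0.0020 and 0.0019), and both calls held under every alternative run, each array left out in turn included.

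Col4a1, 1 of the paired chains of collagen IV, had log2 signals of 12.05, 11.63 and 10.86 in the tumors, 10.85, 11.19 and 11.07 in adjacent tissue and 11.18, 11.22 and 11.39 in normal bladder. Tumors 1 and 2 were above the normal range and tumor 3 below it, and neither difference passed the test, at 0.25 (SE 0.28, adjusted p = 0.59) in tumors and -0.22 (SE 0.14, adjusted p = 0.31) in adjacent tissue by limma. Its partner Col4a2 was at 277%, 175% and 103% of the normal mean in tumors and at 169%, 119% and 110% in adjacent tissues, again without a call (adjusted p = 0.16 and 0.26). Nid1, nidogen, which links the laminin and collagen IV networks, measured 12.41, 12.32 and 12.41 in the normal bladders, against 12.31, 10.71 and 10.35 in the tumors and 11.54, 11.24 and 10.49 in the adjacent tissues. All 6 values were below normal, and Nid1 fell by 1.29 in adjacent tissue (SE 0.25, adjusted p = 0.010, limma), with -1.26 in tumors (adjusted p = 0.10). A dimmer Nid1 probe set gave -0.39 and -0.01 and passed in neither. Col15a1, the collagen XV chain found around muscle fibres and vessels, had log2 signals of 10.89, 10.26 and 9.14 in the tumors, 9.95, 10.07 and 9.52 in adjacent tissue and 10.93, 10.48 and 10.91 in normal bladder. Adjacent tissues did not overlap the normal bladders and Col15a1 fell there by 0.93 (SE 0.20, adjusted p = 0.015, limma), while tumor 1 lay inside the normal range. The Nid1 and Col15a1 calls were lost without normal bladder 1 or 3 (adjusted p up to 0.0765).

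Sequences upstream of Col18a1 and between the collagen IV genes are shown because these 3 genes were the basement membrane members without a lower call. The 76 bases at chr16:84885521-84885596 lie between the starts of Col4a2 (minus strand) and Col4a1 (plus strand), which run in opposite directions, and the Col18a1 stretch is chr20:11473545-11473644 (plus strand), the 100 bases before its start. Neither stretch holds a searched motif, so no letters are in capitals, and both are from RefSeq on GRCr8.
Col4a2 to Col4a1: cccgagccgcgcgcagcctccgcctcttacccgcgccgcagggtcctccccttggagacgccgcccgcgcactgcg
Col18a1: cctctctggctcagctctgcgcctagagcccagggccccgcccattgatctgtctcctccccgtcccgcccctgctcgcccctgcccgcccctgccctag

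**Figure D4:**
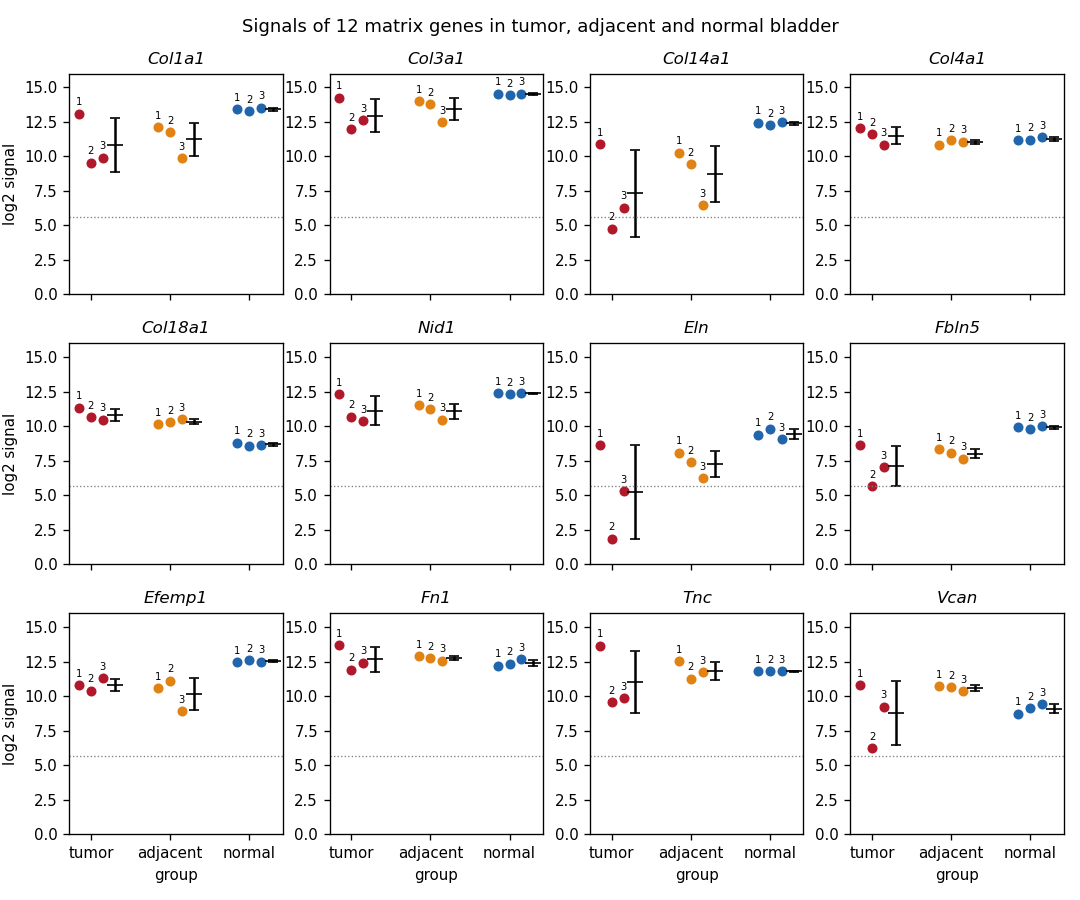
Log2 signal of 12 matrix genes on each array (points, numbered by replicate) with the group mean and SD (bars, n = 3); the dotted line is a signal of 50. Col18a1 is higher in all tumors and adjacent tissues, Vcan in all adjacent tissues, and for Col1a1, Col14a1 and Eln tumors 2 and 3 lie far under tumor 1.

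Among beaded, network and fibril-associated collagens, 1 of 7 fell in tumors (Col14a1) and 3 in adjacent tissue (Col6a2, Col12a1 and Col14a1), and 0 rose. Over all genes 9.95% were called lower in tumors and 11.5% in adjacent tissue, so the 1 of 7 is near that share. Col14a1, a fibril-associated collagen of tissue under tension, was 10.88, 4.78 and 6.30 in tumors, 10.28, 9.45 and 6.46 in adjacent tissues and 12.45, 12.27 and 12.47 in normal bladders. All 6 values were below the normal range, and tumor 2 was under a signal of 50. Its tumor difference with 50 added before log2 was -4.34 (adjusted p = 0.031, limma). As deposited, its difference was -5.08 (SE 1.37, adjusted p = 0.044) in tumors and -3.67 (SE 0.84, adjusted p = 0.021) in adjacent tissue by limma, the lowest of all 39 genes in both. The dimmer probe set gave -3.74 and -3.56 (adjusted p = 0.034 and 0.0042).

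Col12a1, a related fibril-associated chain, measured 10.98, 11.46 and 11.42 in the normal bladders, against 11.30, 8.85 and 8.93 in the tumors and 10.36, 10.18 and 9.73 in the adjacent tissues. Tumor 1 lay within the normal range, adjacent tissues lay below it, and Col12a1 fell by 1.19 in adjacent tissue (SE 0.20, adjusted p = 0.0070, limma). Col6a2, a chain of the beaded filaments of collagen VI that surround cells, had log2 signals of 9.66, 7.04 and 7.14 in the tumors, 7.79, 8.61 and 7.09 in adjacent tissue and 9.41, 9.52 and 9.86 in normal bladder. Only tumor 1 overlapped the normal bladders, and Col6a2 fell by 1.77 in adjacent tissue (SE 0.36, adjusted p = 0.013, limma), and a dimmer probe set did not pass (adjusted p = 0.12). The dimmer Col12a1 probe sets were under a signal of 50 on 4 and 6 arrays. The first passed in neither comparison. The second passed as lower in tumors and adjacent tissue (adjusted p = 0.0092 and 0.012, limma), with all tumor and adjacent signals under 50 and all normal ones above. Col6a1, Col6a3, Col8a1 and Col16a1 passed in neither comparison, with differences from -1.88 to -1.62 in tumors and from -1.45 to -0.77 in adjacent tissue. The tumor call of Col14a1 was lost without tumor 2, tumor 3 or any 1 normal bladder (adjusted p up to 0.137), its adjacent call without any 1 normal bladder (up to 0.0798), and that of Col6a2 without normal bladder 2 or 3 (up to 0.0664).

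Elastic fibre genes were the lowest group in tumor 2, at a median of 5.26% of normal, with 80.4% in tumor 1 and 13.4% in tumor 3. Of 11 genes 2 fell in tumors and 8 in adjacent tissue, and 0 rose. Fbln5, fibulin 5, which guides elastin onto microfibrils, was 8.63, 5.68 and 7.04 in tumors, 8.32, 8.09 and 7.66 in adjacent tissues and 9.96, 9.81 and 10.03 in normal bladders. Every tumor and adjacent value was lower than every normal value. Fbln5 fell in both comparisons, by limma differences of -2.82 (SE 0.65, adjusted p = 0.027) in tumors and -1.91 (SE 0.20, adjusted p = 0.0012) in adjacent tissue. Efemp1, fibulin 3, measured 12.48, 12.63 and 12.51 in the normal bladders, against 10.82, 10.41 and 11.29 in the tumors and 10.57, 11.12 and 8.89 in the adjacent tissues. Here tumor 1 was not the highest tumor, the tumors were close together (SD 0.44), and no value reached the normal range. Its difference was -1.70 (SE 0.21, adjusted p = 0.0050) in tumors and -2.34 (SE 0.49, adjusted p = 0.015) in adjacent tissue by limma, and its tumor call held under every alternative run.

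Eln, elastin itself, had log2 signals of 8.65, 1.85 and 5.29 in the tumors, 8.10, 7.39 and 6.23 in adjacent tissue and 9.40, 9.84 and 9.07 in normal bladder. Tumors 2 and 3 were under a signal of 50 and all 6 values were below normal. Eln fell by 2.20 in adjacent tissue (SE 0.45, adjusted p = 0.014, limma), with -4.17 (SE 1.48, adjusted p = 0.097) in tumors, but a dimmer probe set gave -0.98 and -0.60 and passed in neither (adjusted p = 0.24 and 0.66). With 50 added to the signals before log2, the tumor difference of Eln was -2.52 and passed (adjusted p = 0.048), so its size depends on the dim arrays. Fbn2, a fibrillin used mainly in developing microfibrils, measured 5.89, 6.82 and 6.26 in the normal bladders, against 4.81, 3.23 and 5.05 in the tumors and 3.58, 2.50 and 4.91 in the adjacent tissues. All tumor and adjacent signals of Fbn2 were under 50, so its normal mean was at least 1.6-fold higher than either group, with an adjusted p of 0.029 in adjacent tissue and 0.058 in tumors (limma), or 0.030 in tumors with 50 added. Fbn1, Fbln1, Fbln2 and Mfap5, which build or decorate microfibrils, also fell in adjacent tissue. Their differences were -2.06, -1.57, -1.47 and -2.82 (adjusted p = 0.040, 0.037, 0.036 and 0.032, limma). A dimmer Fbln1 probe set passed in tumors too (-2.78, adjusted p = 0.033, limma).

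The crosslinking enzymes Lox and Loxl1 and the microfibril protein Mfap4 passed in neither comparison. In tumor 2 all 3 were under a signal of 50, which gives only an upper bound of 3.53% of normal for Lox, 2.63% for Loxl1 and 4.27% for Mfap4. Lox was at 200% and 18.8% of the normal mean in tumors 1 and 3 and at 99.2%, 50.7% and 29.8% in adjacent tissues, so tumor 1 and tumor 2 stood on opposite sides of normal. Loxl1 was at 167% and 6.60% in tumors 1 and 3, and Mfap4 at 151% and 7.07%. The tumor call of Fbln5 was lost without tumor 3 or any 1 normal bladder (adjusted p up to 0.0983). In adjacent tissue the calls of Efemp1, Fbln1 and Fbln2 were lost without any 1 normal bladder, those of Fbn1, Fbn2 and Mfap5 also without adjacent tissue 2, and that of Eln without normal bladder 1 or 2 (adjusted p up to 0.139).

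Of 9 adhesive and matricellular genes 0 rose and 2 fell in tumors, and 1 rose and 5 fell in adjacent tissue. Over all genes 13.6% were called higher and 9.95% lower in tumors, and 13.3% and 11.5% in adjacent tissue. With 9 genes, the 2 lower in tumors and the 1 higher in adjacent tissue are not far from these shares. Fn1, fibronectin, which bridges integrins and collagen, was 13.68, 11.92 and 12.43 in tumors, 12.90, 12.78 and 12.58 in adjacent tissues and 12.22, 12.35 and 12.68 in normal bladders. Tumor 1 was well above the normal range and tumor 2 below it, and Fn1 passed in neither comparison, at 0.26 (SE 0.41, adjusted p = 0.71) in tumors and 0.34 (SE 0.16, adjusted p = 0.18) in adjacent tissue by limma. Tnc, tenascin C, a protein of wounds and tumor stroma, measured 11.79, 11.79 and 11.83 in the normal bladders, against 13.66, 9.55 and 9.88 in the tumors and 12.54, 11.26 and 11.75 in the adjacent tissues. As a percent of normal that is 361% in tumor 1 against 21.0% and 26.4% in tumors 2 and 3, and the difference of means was -0.77 (SE 0.99, adjusted p = 0.64, limma). Leaving out tumor 1, 2 or 3 moved it to -2.09, -0.03 or -0.20 (adjusted p = 2.64e-05, 0.99 and 0.93, limma), so the value for Tnc rests on which tumor is included.

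Vcan, versican, a large hyaluronan-binding proteoglycan, had log2 signals of 10.80, 6.23 and 9.25 in the tumors, 10.75, 10.64 and 10.37 in adjacent tissue and 8.74, 9.12 and 9.43 in normal bladder. All adjacent tissues were above all normal bladders, whereas the tumors lay above, below and inside the normal range. Vcan rose by 1.49 in adjacent tissue (SE 0.20, adjusted p = 0.0030, limma), to 280% of normal, with -0.34 (SE 1.02, adjusted p = 0.85) in tumors. Of its 5 probe sets 3 passed as higher in adjacent tissue, and the call held without any 1 array but not in 1 fit of all 9 arrays.

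Postn, periostin, which helps collagen fibres mature, was 12.73, 10.49 and 10.65 in tumors, 12.53, 11.06 and 11.22 in adjacent tissues and 12.84, 13.12 and 13.09 in normal bladders. No tumor or adjacent value reached the normal range, and Postn fell by 1.41 in adjacent tissue (SE 0.35, adjusted p = 0.029, limma), with -1.72 in tumors (adjusted p = 0.073). The 100 bases before its start are shown as those of a gene lower on every array, at chr2:140677961-140678060 of GRCr8 (plus strand, RefSeq), with TATAAA in capitals.
Postn: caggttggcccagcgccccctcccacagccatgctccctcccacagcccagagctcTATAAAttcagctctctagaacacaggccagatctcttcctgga

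Sparc, osteonectin, a collagen-binding glycoprotein, measured 13.48, 13.51 and 13.73 in the normal bladders, against 13.47, 12.58 and 11.87 in the tumors and 12.24, 12.81 and 11.82 in the adjacent tissues. Tumor 1 was just under the normal values and the others were lower, and Sparc fell by 1.28 in adjacent tissue (SE 0.23, adjusted p = 0.0089, limma), with -0.93 in tumors (adjusted p = 0.12), while a dimmer probe set gave -1.32 in adjacent tissue (adjusted p = 0.091). Its relative Sparcl1, hevin, was 12.79, 10.09 and 9.76 in tumors, 12.17, 11.31 and 10.26 in adjacent tissues and 14.00, 13.99 and 13.95 in normal bladders. All 6 Sparcl1 values were well under the narrow normal range. Sparcl1 fell in both, with differences of -3.1 (SE 0.72, adjusted p = 0.028) in tumors and -2.73 in adjacent tissue (SE 0.41, adjusted p = 0.0042) in limma. Matn2, matrilin 2, a filament-forming adaptor protein, measured 12, 11.96 and 11.93 in the normal bladders, against 10.11, 4.57 and 7.93 in the tumors and 10.31, 9.74 and 8.20 in the adjacent tissues. Tumor 2 was again under a signal of 50. The limma differences were -4.43 (SE 1.21, adjusted p = 0.045) in tumors, or -3.79 with 50 added, and -2.55 in adjacent tissue (SE 0.46, adjusted p = 0.0087), with no value of either group near the normal range.

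Of the thrombospondins, which bind matrix and cell receptors, Thbs2 fell by 1.31 in adjacent tissue (adjusted p = 0.031, limma), and Thbs4 passed in neither comparison. The tumor calls of Sparcl1 and Matn2 were lost without tumor 3 or any 1 normal bladder and that of Sparcl1 also without tumor 2 (adjusted p up to 0.130), whereas their adjacent calls and that of Sparc held without any 1 array. The Postn and Thbs2 calls were lost without adjacent tissue 2 or 3 or any 1 normal bladder (adjusted p up to 0.123).

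Tumors and adjacent tissue were not separated for any of the 39 genes. The log2 difference, tumor minus adjacent, ran from -2.13 to 0.72, and 0 genes passed in limma, 0 at an unadjusted p under 0.05 and 0 by the methods' t-test, while 376 of all 14217 genes had an unadjusted p under 0.05. For 0 of 39 genes did all tumors lie above or below all adjacent tissues, against 7.06% of all genes. Col18a1 was 0.49 higher in tumors (SE 0.25), and the difference of Vcan was -1.83 (SE 0.99), neither past the test.

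The enzymes and chaperones that fold and modify collagen were measured for 22 of 30 listed genes, of which 1 rose and 5 fell in tumors and 1 rose and 10 fell in adjacent tissue. All genes had 13.6% higher and 9.95% lower in tumors, and 13.3% and 11.5% in adjacent tissue. The median log2 differences of the 22 genes were -0.70 and -0.87. P4hb, the disulfide isomerase subunit of prolyl hydroxylase, rose by 0.63 in tumors (adjusted p = 0.010) and by 0.57 in adjacent tissue (adjusted p = 0.017) in limma. Creb3l1, a transcription factor of collagen-secreting cells, fell by 1.99 in tumors (adjusted p = 0.012), followed by Fkbp14, a prolyl isomerase, at -1.55 (adjusted p = 0.0497, limma). Lowest of those called in adjacent tissue were Serpinh1, the collagen chaperone HSP47, at -1.77 (adjusted p = 0.0023) and Plod2, a lysyl hydroxylase, at -1.56 (adjusted p = 0.014, limma).

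Of 21 listed matrix receptors 17 were measured, with 4 higher and 5 lower in tumors and 2 higher and 7 lower in adjacent tissue, and medians of -0.53 and -0.43. Over all genes 13.6% were called higher and 9.95% lower in tumors, and 13.3% and 11.5% in adjacent tissue. The 2 of 17 receptors higher in adjacent tissue are near that share. Sdc1, syndecan 1, an epithelial heparan sulfate proteoglycan, rose by 1.42 in tumors (adjusted p = 0.0036) and by 1.10 in adjacent tissue (adjusted p = 0.0024) in limma. Itga3, an integrin subunit of epithelial cells that binds laminins, rose by 1.08 and 0.78 (adjusted p = 0.021 and 0.041). Ddr2, a receptor tyrosine kinase for fibrillar collagen, was 9.85, 7.09 and 7.72 in tumors, 9.28, 8.74 and 8.39 in adjacent tissues and 11.85, 11.68 and 11.70 in normal bladders. The groups did not overlap the normal bladders, and the differences were -3.52 (adjusted p = 0.013) and -2.94 (adjusted p = 0.0005) by limma. Itga11, a collagen-binding integrin subunit of fibroblasts, fell by 3.19 in tumors (adjusted p = 0.019, limma), with tumors 2 and 3 under a signal of 50. Its adjacent signals were all under 50, so that the normal mean was at least 6.26-fold higher (adjusted p = 0.0012).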

How the data were processed

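Total RNA was labelled with biotin by 3′ amplification and hybridised to Affymetrix rat arrays, scanned with Command Console Software 3.1. The deposited log2 signals were made by the authors with the MAS 5.0 algorithm in Gene Spring 11.0, and the 2% trimmed mean of the linear signal was equal on all 9 arrays. No detection calls were used here, so signals under 50, a limit chosen after the spread at low signals was seen, were treated as dim. Each pair of groups was fitted over 31042 probe sets (57 array controls left out) with limma 3.58.1 in R 4.3.3, using a mean-variance trend and Benjamini-Hochberg adjustment, and a call was an adjusted p under 0.05. Of these probe sets 20826 named 1 gene, 436 several and 9780 none in the platform annotation, and the brightest stood for a gene. The fit was tested on simulated data. Members, gene lists and tests were chosen with earlier results of these data known. Array values were given for up to 4 called genes a role group with the smallest adjusted p and for Col1a1, Col3a1, Col4a1, Eln, Fn1, Sparc, Tnc and Postn, and of processing and receptor genes the 2 highest and 2 lowest called were named. Alternatives were quantile normalization, median centring, a filter on low signals, 50 added before log2, no trend, 1 fit of all arrays, the methods' t-test, all probe sets of a gene averaged, a replicate block and each array left out. The number of arrays limits the precision, and sequences came from RefSeq tables of GRCr8.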

Additional observations from a re-analysis of the deposited data

How the results depend on the processing

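The number of matrix genes called, 6 in tumors and 23 in adjacent tissue against normal bladder, stayed within 1.5 times under quantile normalization, median centring, a filter on low signals, 50 added before log2 and all probe sets of a gene averaged. It was 2 in tumors and 7 in adjacent tissue without the variance trend, 2 and 3 by the methods' t-test after adjustment, and 5 in adjacent tissue in 1 fit of all 9 arrays, where the wider spread of tumors enters the shared error. Leaving out 1 array gave 2 to 35 in tumors, the highest without tumor 1, and 8 to 30 in adjacent tissue, the lowest without normal bladder 1 or 3. Apart from the run without tumor 1, no share over all genes stands beside the counts of these alternatives, so those are not a result about matrix genes alone. Tumor minus adjacent gave 0 calls throughout, and its median log2 difference ran from -1.32 to 0.062 when 1 array was left out, turning positive without tumor 2 (0.062) or tumor 3 (0.01). No gene with array values reversed its direction past the threshold. With the replicate number as a replicate block, the counts were 6, 23 and 0. The correlation of same-numbered tumor and adjacent deviations was 0.24, 0.044 and 0.137, and tumor 2 correlated best with adjacent tissue 3 (0.106), so the numbers were not taken as pairs. The median shift of all probe sets for tumor minus normal was -0.05 as deposited, 0.07 after quantile normalization and 0.15 after centring. Signals under 50, found for 10 of the 39 genes in tumor 2, carry no order.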

Other observations

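Several probe sets were present for 19 of the 39 matrix genes, 63 in all. The sign of tumor minus normal was the same on all of a gene's probe sets for 17 of the 19, with Col12a1 and Vcan as the others, and the sign of adjacent minus normal for 18, with Col11a1 as the other. The 14 genes above every normal array in tumor 1, a share below that of all genes (41.1%), were Col5a1, Col5a3, Col4a1, Col4a2, Col18a1, Col6a3, Col8a1, Mfap4, Lox, Loxl1, Fn1, Tnc, Thbs4 and Vcan. The 5 that were not below every normal array in both tumors 2 and 3, where 28% of all genes were below, were Col4a1, Col4a2, Col18a1, Fn1 and Vcan.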
